A study of Mus musculus with 12 samples.

Results

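Eyelid tissue collected at 15h was compared with eyelid tissue collected at 9h, with both diets in one comparison and diet as a blocking factor. The members are the 8 libraries labelled 9h or 15h, of 12 in all: 4 libraries at 9h and 4 at 15h, and the remaining 4, labelled 21h, were used only to set the low-value filter and, as a later time, for description. All groups were male C57BL/6 mice, 6 to 8 weeks old at the start, housed under 12 h of light and 12 h of darkness, and given 1 week of adaptation before the diets. Control mice (CTL) received a standard diet with 10 kcal% fat and high-fat mice (HF) a diet with 60 kcal% fat, for 3 months per the labels and for 4 months per the series text. The mice were killed at 9 am, 3 pm (here 15h) or 9 pm (21h), and each diet and time has 2 libraries. No source used here tells if RNA of several mice went into one library, and every p-value below rests on the scatter among libraries alone, some of which may be technical. Libraries are named by diet, time and the number in their label. Lists of values run in the order CTL 9h 2, CTL 9h 3, HF 9h 6 and HF 9h 7, and then CTL 15h 2, CTL 15h 3, HF 15h 2 and HF 15h 6.

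The labels call the tissue meibomian gland, the oil-secreting gland of the lid margin, whereas the series text describes upper and lower eyelids taken whole. All 26 markers listed for meibocytes and sebocytes passed the filter, with a summed level of 9273 to 14479 FPKM at 9h and 9371 to 12839 FPKM at 15h. FPKM is a read number scaled to the length of a gene's exons and to the size of the library. Of 26 skeletal muscle genes 25 also passed, with sums of 7912 to 10173 FPKM at 9h, and 16 of 16 keratinocyte and 23 of 24 hair follicle genes did. Only 4 of 15 genes of lacrimal and salivary acini passed. The libraries therefore held gland, muscle, skin and hair follicle RNA together, and in bulk tissue fewer cells of a type and less RNA per cell cannot be told apart.

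As background, the circadian clock is a loop of transcription factors. Arntl (BMAL1) pairs with Clock or Npas2 and switches on genes with E-boxes, among them the Per and Cry repressors, which feed back on the pair. The nuclear receptors Nr1d1 and Nr1d2 (REV-ERB) repress Arntl, while Dbp, Tef and Hlf carry the rhythm to output genes through D-boxes. The eyelid closes by a ring of striated muscle, the orbicularis oculi, whose fibres carry the usual fast muscle proteins, and skeletal muscle has its own clock-driven genes.

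Asb2 and Ppp1r27, the pair of genes that passed the test, and Per3, the core clock gene with the largest difference among the period genes, are shown here by the 250 bases before the start of their RefSeq transcript (GRCm38.p6), 5′ to 3′ on the strand of the gene. The windows are chr12:103356002-103356251 for Asb2, chr11:120551133-120551382 for Ppp1r27 and chr4:151044666-151044915 for Per3, all on the minus strand. Capitals mark matches to the motifs searched on both strands.
Asb2: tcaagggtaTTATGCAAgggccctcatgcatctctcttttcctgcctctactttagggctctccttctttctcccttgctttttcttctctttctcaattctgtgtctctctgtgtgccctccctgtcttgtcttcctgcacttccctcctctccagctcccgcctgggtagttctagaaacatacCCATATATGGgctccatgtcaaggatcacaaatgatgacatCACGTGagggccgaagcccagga
Ppp1r27: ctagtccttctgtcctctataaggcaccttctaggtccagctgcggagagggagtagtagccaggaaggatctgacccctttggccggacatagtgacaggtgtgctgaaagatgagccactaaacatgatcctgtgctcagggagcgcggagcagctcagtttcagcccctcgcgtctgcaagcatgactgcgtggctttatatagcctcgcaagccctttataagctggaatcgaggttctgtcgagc
Per3: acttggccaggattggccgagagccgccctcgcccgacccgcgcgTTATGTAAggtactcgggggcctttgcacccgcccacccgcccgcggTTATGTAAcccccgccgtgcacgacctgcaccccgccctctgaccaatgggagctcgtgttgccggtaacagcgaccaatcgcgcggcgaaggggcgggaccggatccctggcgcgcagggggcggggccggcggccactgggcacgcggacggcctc
The Asb2 window held 1 E-box (CACGTG) ending 18 bases before the start, 1 D-box (TTATGNAA) and 1 CArG box, the site bound by serum response factor, spelled CCATATATGG. Per3 had a pair of D-boxes, both TTATGTAA, and no match was found for Ppp1r27. Of 32817 RefSeq promoter windows of this length, 6.02% held the E-box, 3.07% the D-box and 1.47% the CArG box, and the motifs share no letters in the 3 windows. A further search for the ROR element TAGGTCA (2.24% of windows) and for the MEF2 site of muscle genes (1.69%) found neither in these 3 windows. Asb2 has a further start in that table, which is not shown. Of 32 clock genes listed, 28 were matched to a promoter, and 8 of them held an E-box in any of their windows. Counts by gene are not on the same footing as the shares above, which are per window. Of the muscle list 19 genes were matched, with a MEF2 site in 4 of them (Myh1, Myh4, Pvalb and Ttn) and a CArG box in 2. These matches describe letters only.

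Between 14881736 and 17867452 reads per library were recovered from the FPKM values in the 8 libraries. For a gene with 2 kb of exons, a single read then stands for 0.02795 to 0.0336 FPKM. One library stood apart, which was noticed after the values were seen. On the first principal component of the 8 libraries (33.6% of the variance), CTL 9h 2, CTL 9h 3 and HF 9h 7 lay at -20.9, -16.7 and -26.7, and the 15h libraries lay between 7.32 and 20.3. HF 9h 6 lay at 9.13, within the range of the 15h libraries. It also had 16944 genes above 0 FPKM, against 16512 to 16680 in the other 9h libraries and 16789 to 16929 at 15h. HF 15h 6 had a sum of immediate early genes of 1612 FPKM, against 648 to 1015 FPKM in the other 7 libraries. At 21h, HF 21h 6 had a sum of 1935 FPKM, against 666 to 749 FPKM in the rest of that time. Counts and the genes the results turn on are therefore given with all 8 libraries and, for most, without HF 9h 6. That library was left out because of its place beside the 15h libraries, a choice that by itself lowers p-values between the times. Results without it are thus a description and no independent evidence. Why that library lies there was not tested.

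**Figure D1:**
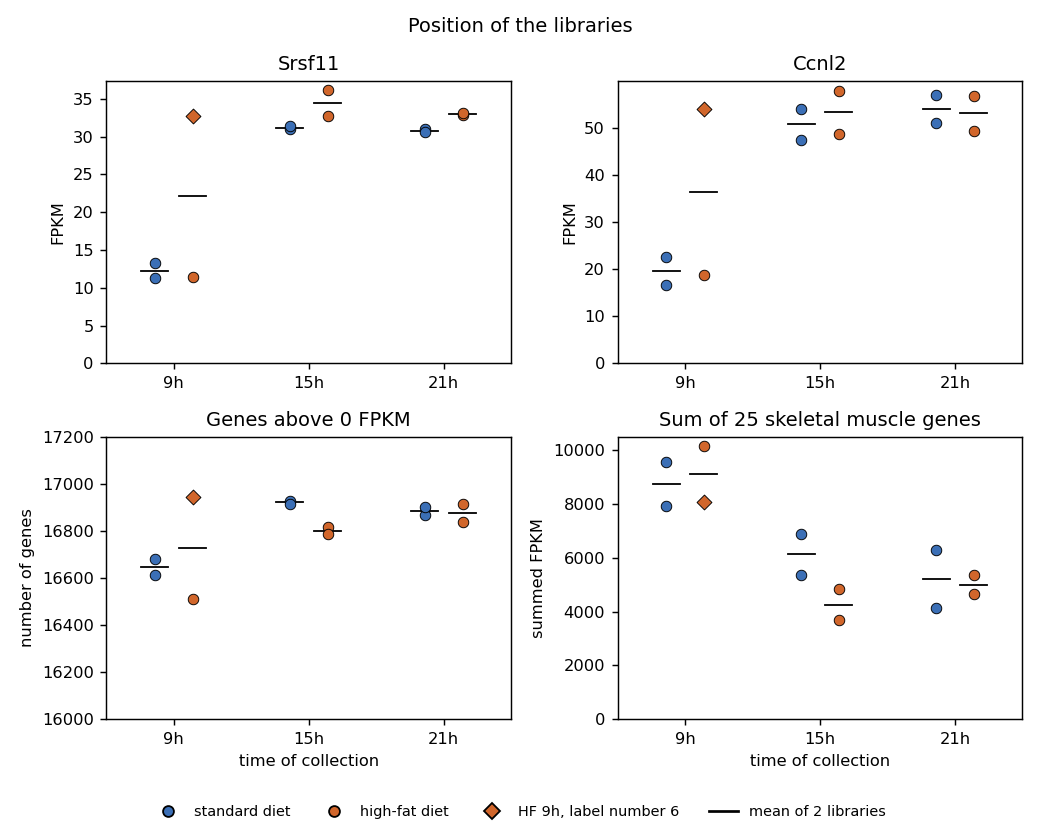
Values of each of the 12 libraries by time of collection and diet: the FPKM of Srsf11 and Ccnl2, the number of genes above 0 FPKM (axis not starting at 0) and the summed FPKM of the 25 skeletal muscle genes tested. Points are libraries, the diamond is HF 9h 6 and lines are means of 2 libraries. The diamond lies with the 15h and 21h libraries for Srsf11 (32.8 FPKM), Ccnl2 (54.1 FPKM) and genes detected (16944), and with the 9h libraries for the muscle sum (8067 FPKM).

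With all 8 libraries, 2 of 13228 genes passed the test at an adjusted p under 0.05 (0.0151%; limma on log2(FPKM + 1), Benjamini-Hochberg over all genes tested). Both were lower at 15h (0.0151%), and none was higher (0%). At an unadjusted p under 0.05 there were 2498 genes (18.9%), 1499 higher (11.3%) and 999 lower (7.55%) at 15h. That split turned to 1207 higher and 1329 lower when the libraries were shifted to one median. In 621 genes (4.69%) each 15h library lay below each 9h library, and in 419 genes (3.17%) each lay above. An adjusted p under 0.1, chosen as a second threshold after seeing the data, held for 107 genes (0.809%), of which 93 were lower (0.703%) and 14 higher (0.106%) at 15h. Without HF 9h 6, 2241 genes passed at 0.05 (16.9%), and all 107 genes were among them. Both fits share the remaining libraries, so that recurrence is no further support. Of the 2241 genes, 618 were lower (4.67%) and 1623 higher (12.3%). This split depended on the scaling: with the libraries also shifted to one median it was 1113 lower and 855 higher, the median of all genes moving from 0.08 to -0.02 on the log2 scale.

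Asb2, which encodes the substrate-recognising subunit of a ubiquitin ligase found in muscle (ENSMUSG00000021200, GRCm38 chromosome 12, 103321142 to 103356001, minus strand), fell at 15h. It was at 19.9, 18.9, 17.7 and 23.0 FPKM at 9h and at 8.35, 7.18, 7.79 and 9.28 FPKM at 15h. The lowest 9h library was thus well above the highest 15h library, on either diet. Means were 19.9 ± 2.30 FPKM at 9h and 8.15 ± 0.893 FPKM at 15h (SD, n = 4 each). The log2 difference was -1.19 ± 0.10 (SE; limma adjusted p = 0.0283), -1.22 on the standard diet and -1.15 on the high-fat diet. At 21h the libraries CTL 21h 1, CTL 21h 2, HF 21h 3 and HF 21h 6 had 10.7, 5.98, 7.31 and 9.97 FPKM, around the 15h values.

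Ppp1r27, a regulatory subunit of protein phosphatase 1 (ENSMUSG00000025129, GRCm38 chromosome 11, 120549979 to 120551132, minus strand), fell further. Its levels were 5.04, 3.41, 3.87 and 3.10 FPKM at 9h and 1.08, 0.656, 0.508 and 0.174 FPKM at 15h. The ranges did not overlap, and the means were 3.85 ± 0.853 and 0.606 ± 0.378 FPKM (SD, n = 4 each). At 21h the gene was at 1.92, 1.14, 1.84 and 1.33 FPKM, above every 15h library and below every 9h library. The log2 difference was -1.61 ± 0.16 (SE; limma adjusted p = 0.0288), a scale on which the change of so low a gene is understated. With HF 9h 6 left out, the limma adjusted p was 0.00526 for both genes, and without HF 15h 6 it was 0.0374 for both. Leaving out any other library ended both calls, with an adjusted p for Asb2 of 0.162 without CTL 9h 2, 0.0884 without CTL 9h 3, 0.128 without HF 9h 7, 0.0776 without CTL 15h 2, 0.133 without CTL 15h 3 and 0.0527 without HF 15h 2. The log2 difference of Asb2 stayed between -1.27 and -1.12 in these 8 fits. Both calls also ended with no filter on low values. That of Asb2 ended with the libraries shifted to one median (limma adjusted p = 0.0511) and with all 12 libraries in the fit (0.0709), and that of Ppp1r27 with a pseudocount of 0.1 (0.0696) and with limma-voom on recovered reads (0.0518).

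**Figure D2:**
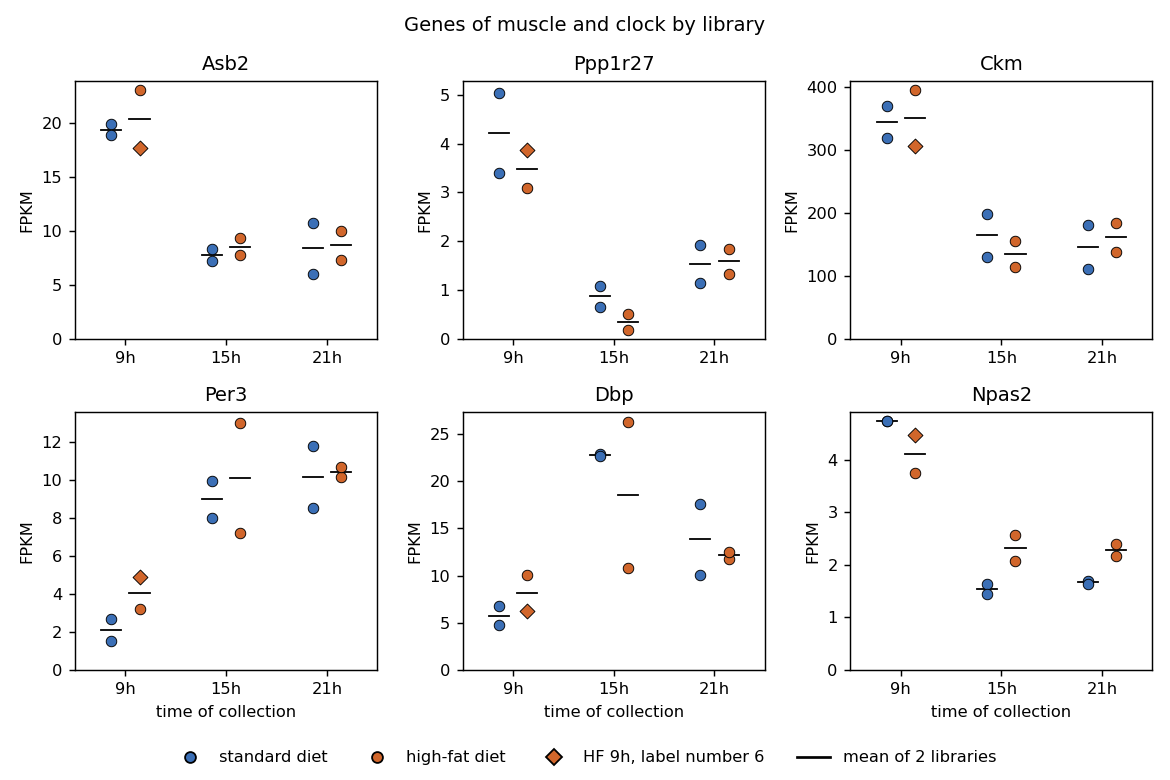
FPKM of Asb2, Ppp1r27, Ckm, Per3, Dbp and Npas2 in each of the 12 libraries, by time of collection. Blue points are standard-diet and orange points high-fat libraries, the diamond is HF 9h 6, and lines are means of 2 libraries. The 4 libraries of 15h lie below the 4 of 9h for Asb2, Ppp1r27, Ckm and Npas2 and above them for Per3 and Dbp, where the margin for Dbp is 10.0 to 10.8 FPKM.

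The other 8 genes among the 10 with the smallest p did not pass, with a limma adjusted p of 0.0627 to 0.0706. Among them were genes of striated muscle. Csrp3, a protein of the Z-disc that anchors the contractile filaments, was at 12.2, 7.95, 9.75 and 9.42 FPKM at 9h and at 4.77, 4.19, 4.23 and 4.90 FPKM at 15h, a log2 difference of -0.96 ± 0.12 (SE). Ckm, the muscle creatine kinase, was at 369, 319, 305 and 395 FPKM and then at 198, 129, 155 and 114 FPKM (-1.24 ± 0.17). Myh2, the myosin heavy chain of fast oxidative fibres, was at 8.61, 11.1, 12.2 and 17.7 FPKM and then at 5.22, 3.42, 4.84 and 4.88 FPKM (-1.23 ± 0.16). In all of these each 15h library lay below each 9h library. The small heat shock protein Hspb7, a chaperone of heart and skeletal muscle, had a log2 difference of -0.77 ± 0.11. Usp13, a deubiquitinase, stood at -0.94 ± 0.13 and Ptp4a3, a phosphatase, at -0.73 ± 0.10. Pla2g4f, a cytosolic phospholipase A2, was at 16.8, 16.8, 20.5 and 19.4 FPKM at 9h and at 25.7, 24.0, 29.3 and 33.7 FPKM at 15h, a difference of 0.58 ± 0.08. The unnamed gene AC149090.1, on an unplaced scaffold, was at 66.4 to 91.7 FPKM at 9h and 160 to 205 FPKM at 15h (1.13 ± 0.13). All 8 passed without HF 9h 6, with a limma adjusted p of 0.00526 to 0.0104.

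Most listed muscle genes had lower values at 15h. Of the 25 tested, 24 had a negative log2 difference, and 15 had each 15h library below each 9h library, beside 4.69% of all genes. None passed at 0.05, 13 did at 0.1 (0.703% of all genes were lower at that threshold) and 21 had an unadjusted p under 0.05 (7.55%). The median log2 difference was -0.81, against 0.05 over all genes tested. It was -0.55 on the standard and -1.02 on the high-fat diet. The median was -0.87 without HF 9h 6, and 15 of the 25 genes passed as lower at 0.05, as 4.67% of all genes did. The one gene not tested, Tnnc2, was below the filter. The list had been chosen with earlier results of these data known, so its direction is not independent evidence.

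The largest difference in the list was that of Atp2a1. Atp2a1, the calcium pump of fast fibres, was at 800, 722, 489 and 986 FPKM at 9h and at 339, 239, 263 and 244 FPKM at 15h (log2 difference -1.43 ± 0.21; limma adjusted p = 0.0706, and 0.00526 without HF 9h 6). HF 9h 6 was the lowest of the 9h libraries here, yet still above every 15h library. Actn3, the alpha-actinin of fast fibres, stood at -1.24 ± 0.23, Mybpc2, a myosin-binding protein, at -1.14 ± 0.18 and Pygm, the glycogen phosphorylase of muscle, at -1.07 ± 0.17. Myoglobin (Mb, -0.91 ± 0.13), desmin (Des, -0.81 ± 0.12), the calcium release channel Ryr1 (-0.85 ± 0.14) and alpha-actin (Acta1, -0.90 ± 0.18) were also below all 9h libraries at 15h. Myod1, a transcription factor that specifies muscle cells, was at 2.25, 1.83, 2.25 and 2.01 FPKM at 9h, at 1.24, 0.952, 0.631 and 0.505 FPKM at 15h and at 0.419 to 0.614 FPKM at 21h.

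The muscle genes were not uniform. The giant proteins titin (Ttn, 0.03 ± 0.17) and nebulin (Neb, -0.30 ± 0.13) had the smallest differences. Parvalbumin (Pvalb), the troponin Tnnt3, calsequestrin (Casq1) and telethonin (Tcap) had ranges that overlapped between the times. Casq1 was at 93.4, 74.2, 82.9 and 92.7 FPKM at 9h and at 91.2, 82.6, 58.0 and 33.6 FPKM at 15h, so only the high-fat libraries were low. Pvalb differed by 0.01 on the standard and by -1.36 on the high-fat diet. The difference between the diets did not pass for any gene (smallest adjusted p over all genes 0.942).

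**Figure D3:**
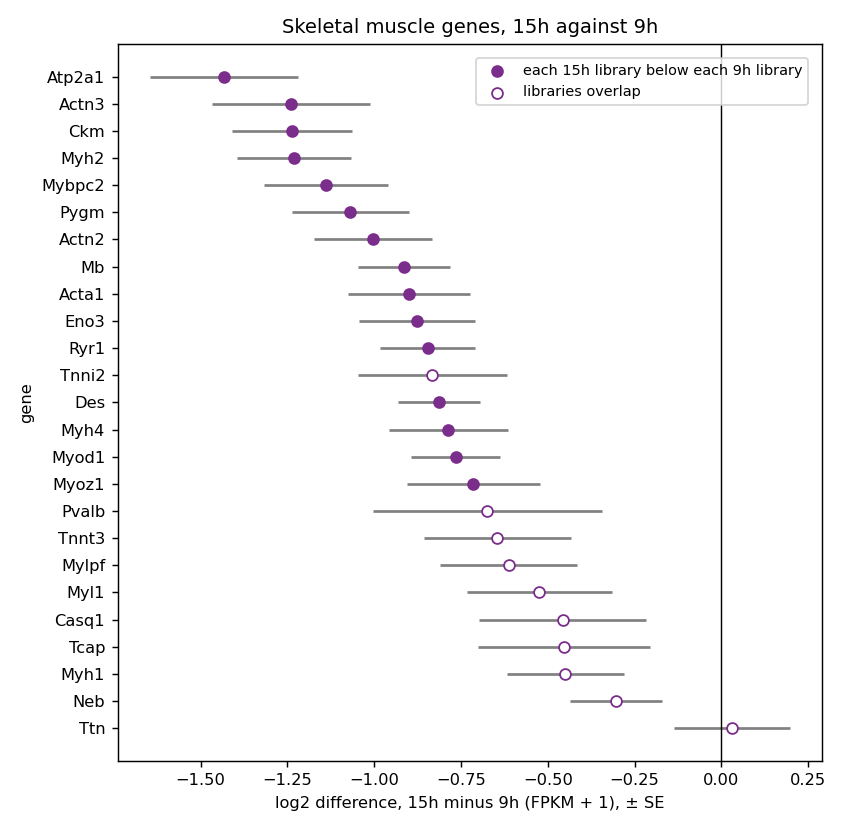
Log2 difference (15h minus 9h, log2(FPKM + 1) scale) of the 25 skeletal muscle genes tested, with standard errors as bars, in order of size. Filled points are the 15 genes whose 15h libraries all lie below the 9h libraries. The values run from -1.43 for Atp2a1 to 0.03 for Ttn.

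The summed level of the 25 muscle genes was 9552, 7912, 8067 and 10173 FPKM at 9h and 6898, 5362, 4852 and 3672 FPKM at 15h. The 21h libraries had 4124 to 6282 FPKM, so all 15h and 21h sums lay below all 9h sums. Relative to the mean of the rest of the muscle list (a scale added after seeing the data), Ppp1r27 remained below every 9h library at 15h, with a difference of -0.81. Ckm did too, at -0.46. Asb2 stood at -0.39 and its ranges overlapped, since HF 15h 6 was at -2.62, above every 9h library. Hspb7 (0.03), Ptp4a3 (0.07) and Myod1 (0.03) had values near 0 on that scale. Myod1 fell from a mean of 2.08 FPKM at 9h to 0.833 FPKM at 15h, and log2(FPKM + 1) understates the change of so low a gene. Its value near 0 therefore does not show that Myod1 changed as the list did. Atp2a1 was at -0.66 with overlapping ranges, and Ttn was at 0.86 and above every 9h library at 15h.

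The list of insulin, FOXO and feeding-responsive genes had a median of -0.04. In it 4 of 23 genes had each 15h library below each 9h library (4.69% of all genes) and none had each above (3.17%). None passed at 0.05 with all 8 libraries, and 3 passed as lower (Foxo3, Trim63 and Slc2a4; 4.67% of all genes) and 1 as higher (Insr, the insulin receptor; 12.3%) without HF 9h 6. Trim63 (MuRF1), a ubiquitin ligase that marks muscle proteins for degradation, was at 11.5, 10.1, 10.96 and 22.4 FPKM at 9h and at 4.78, 4.85, 4.94 and 6.16 FPKM at 15h (-1.19 ± 0.20; limma adjusted p = 0.0745, and 0.00753 without HF 9h 6). CTL 21h 1 had 17.2 FPKM and the other 21h libraries 4.79 to 8.99 FPKM. Fbxo32 (atrogin-1), a ubiquitin ligase of the same process, stood at -0.38 ± 0.10 and Foxo3, a transcription factor that induces both, at -0.36 ± 0.10, each without overlap between the times. Their adjusted p was 0.162 and 0.165 with all 8 libraries, and 0.0508 and 0.0330 without HF 9h 6. Slc2a4, the insulin-responsive glucose transporter, was at 22.5, 19.4, 22.0 and 25.4 FPKM at 9h and at 17.0, 13.1, 12.9 and 12.2 FPKM at 15h (-0.66 ± 0.12; limma adjusted p = 0.0897, and 0.0247 without HF 9h 6). Relative to the mean of the muscle list, Trim63 stood at -0.39 and its ranges overlapped.

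Pdk4, a kinase that shuts off glucose oxidation and stands in 3 of the lists, was at 126, 117, 60.3 and 108 FPKM at 9h and at 32.6, 38.9, 40.8 and 53.9 FPKM at 15h. Its log2 difference was -1.25 ± 0.24 (limma adjusted p = 0.0965, and 0.00526 without HF 9h 6), -1.74 on the standard and -0.77 on the high-fat diet. Relative to the mean of the muscle list it stood at -0.46, with overlapping ranges. In the list of fatty acid oxidation and PPAR targets 21 of 23 genes had negative values, with a median of -0.15. There 8 were lower at an unadjusted p under 0.05 (7.55% of all genes), and 3 (Pdk4, Ucp3 and Acadl) had no overlap (4.69%). None passed at 0.05 with all 8 libraries, and 9 passed as lower without HF 9h 6 (4.67%). Ucp3, the uncoupling protein of muscle mitochondria, was at 14.1 to 21.9 FPKM at 9h and 5.70 to 12.8 FPKM at 15h. Acadl, a long-chain acyl-CoA dehydrogenase, was at 62.9 to 80.1 FPKM and then at 50.7 to 61.9 FPKM. Of 24 nuclear genes of the respiratory chain 22 had negative values, 8 without overlap (4.69% of all genes), and the median was -0.22. Uqcrc1, a core subunit of complex III, was at 86.5, 81.9, 71.3 and 88.5 FPKM at 9h and at 69.8, 57.1, 60.7 and 62.1 FPKM at 15h. The flavoprotein subunit of complex II, Sdha, was at 63.4 to 73.8 FPKM at 9h and at 51.2 to 59.5 FPKM at 15h. None of the 24 passed at 0.05 with all 8 libraries, and 7 passed as lower without HF 9h 6 (4.67% of all genes). These metabolic genes are expressed by muscle as well as by gland and skin, and the muscle sum was low in the same libraries, whose part was not tested.

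The clock lists hold 32 genes, of which 31 were tested and 1 (Rorb) was below the filter. None passed at 0.05 with all 8 libraries, and 10 had higher (11.3% of all genes) and 6 lower (7.55%) values at an unadjusted p under 0.05. In 6 genes each 15h library lay above each 9h library (3.17% of all genes), and in 5 each lay below (4.69%). Without HF 9h 6, 8 passed as higher (Per2, Per3, Ciart, Nr1d2, Dbp, Tef, Inmt and Coq10b), as 12.3% of all genes did. In that fit 3 passed as lower (Npas2, Pdk4 and Por), as 4.67% of all genes did. These lists too were chosen with earlier results known.

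Among the activators, Npas2, a partner of BMAL1, was at 4.74, 4.74, 4.48 and 3.74 FPKM at 9h and at 1.64, 1.44, 2.07 and 2.58 FPKM at 15h. All 15h libraries were below all 9h libraries (log2 difference -0.90 ± 0.13; limma adjusted p = 0.0706, 0.0125 without HF 9h 6 and 0.0211 with all 12 libraries in the fit). Arntl was at 4.68, 4.95, 5.24 and 3.75 FPKM at 9h and at 2.33, 2.35, 2.35 and 4.04 FPKM at 15h (-0.60 ± 0.16; adjusted p = 0.155, and 0.0706 without HF 9h 6). HF 15h 6 alone lay within the 9h range. Clock (-0.04 ± 0.09) and Rora, an activator of Arntl (-0.04 ± 0.16), had no difference beyond their errors. Neither sign held for Clock and Rora when single libraries were left out.

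Among the repressors, the period genes differed from one another. Per2 was at 1.31, 1.63, 3.95 and 2.97 FPKM at 9h and at 5.60, 7.02, 7.79 and 5.76 FPKM at 15h, and the 21h libraries were higher still, at 10.9 to 15.2 FPKM. Its log2 difference was 1.18 ± 0.18 (limma adjusted p = 0.0721, 0.00707 without HF 9h 6 and 0.0220 with all 12 libraries in the fit). Per3 was at 1.54, 2.68, 4.86 and 3.22 FPKM at 9h and at 8.01, 9.91, 13.0 and 7.19 FPKM at 15h (1.40 ± 0.22; adjusted p = 0.0721, and 0.00859 without HF 9h 6). In both genes HF 9h 6 was the highest of the 9h libraries and still below every 15h library. Per1 ranged from 6.56 to 23.0 FPKM at 9h and from 7.18 to 32.6 FPKM at 15h, with a difference of 0.13 ± 0.25 whose sign turned when single libraries were left out. Ciart, a repressor of the BMAL1 complex, stood at 0.61 ± 0.12 (adjusted p = 0.0965). Nr1d2 was at 9.30, 13.4, 21.0 and 18.1 FPKM and then at 30.1, 33.1, 38.0 and 22.8 FPKM (0.99 ± 0.22; adjusted p = 0.125, and 0.0235 without HF 9h 6). Nr1d1 was at 11.5, 18.3, 13.9 and 19.4 FPKM and then at 28.6, 21.8, 22.9 and 11.7 FPKM, where HF 15h 6 was among the lowest of all 8. Cry1 was at 5.99 to 8.52 FPKM at 9h, at 4.72 to 5.97 FPKM at 15h and at 9.38 to 11.8 FPKM at 21h, so its 15h level was the lowest of the 3 times.

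The output factors Dbp and Tef were higher in every 15h than in every 9h library. Dbp was at 4.70, 6.80, 6.25 and 10.0 FPKM at 9h and at 22.8, 22.7, 26.2 and 10.8 FPKM at 15h. The log2 difference was 1.42 ± 0.29 (limma adjusted p = 0.109), 0.0370 without HF 9h 6 and 0.0374 without HF 15h 6, the lowest 15h library. Tef was at 9.63, 11.8, 15.8 and 16.8 FPKM and then at 26.9, 26.8, 31.7 and 18.5 FPKM (0.90 ± 0.19; adjusted p = 0.119, 0.0305 without HF 9h 6 and 0.0374 without HF 15h 6). Hlf (0.34 ± 0.18) and the repressor of D-box genes Nfil3 (-0.35 ± 0.23) had overlapping ranges. Exons of Dbp and of the oppositely oriented Sphk2 share 18.0% of the exon bases of Dbp, and without a stated strand setting their reads cannot be told apart there. In all, 23 of the 63 genes picked by the naming rule given below share exon bases with another gene of the annotation. Genes reported here outside that rule were not checked for overlap. Among the output genes, Coq10b, which serves coenzyme Q, was at 6.51 to 7.97 FPKM at 9h and 8.50 to 11.3 FPKM at 15h, and Por, the electron donor of cytochromes P450, at 70.5 to 109 FPKM and then 63.5 to 70.4 FPKM.

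In 27 of the 31 clock genes the size of the difference was larger on the standard than on the high-fat diet, against 62.2% of all genes tested. Among the 2241 genes that passed without HF 9h 6 it was larger on the standard diet in 1944 (86.8%), a share like that of the clock genes. These 2241 genes were selected without HF 9h 6, whereas the size on the high-fat diet includes it. In most of them that library lay nearer the 15h mean, so a larger size on the standard diet was partly built in. For Npas2 it was -1.18 on the standard and -0.62 on the high-fat diet, for Per2 1.56 and 0.80, and for Nr1d2 1.42 and 0.57. The direct test of the difference had an unadjusted p under 0.05 in 10 of the 31 genes (4.41% of all genes) and passed adjustment in none (smallest adjusted p 0.942). Among the clock genes the largest such difference was that of Inmt, a methyltransferase, at 6.04 and 9.64 FPKM on the standard and 17.7 and 14.6 FPKM on the high-fat diet at 9h, and at 24.3, 25.1, 21.2 and 17.7 FPKM at 15h. The log2 difference on the high-fat diet minus that on the standard diet was -1.32 ± 0.29. HF 9h 6 is 1 of the 2 libraries behind every high-fat value at 9h, and its part was not tested.

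**Figure D4:**
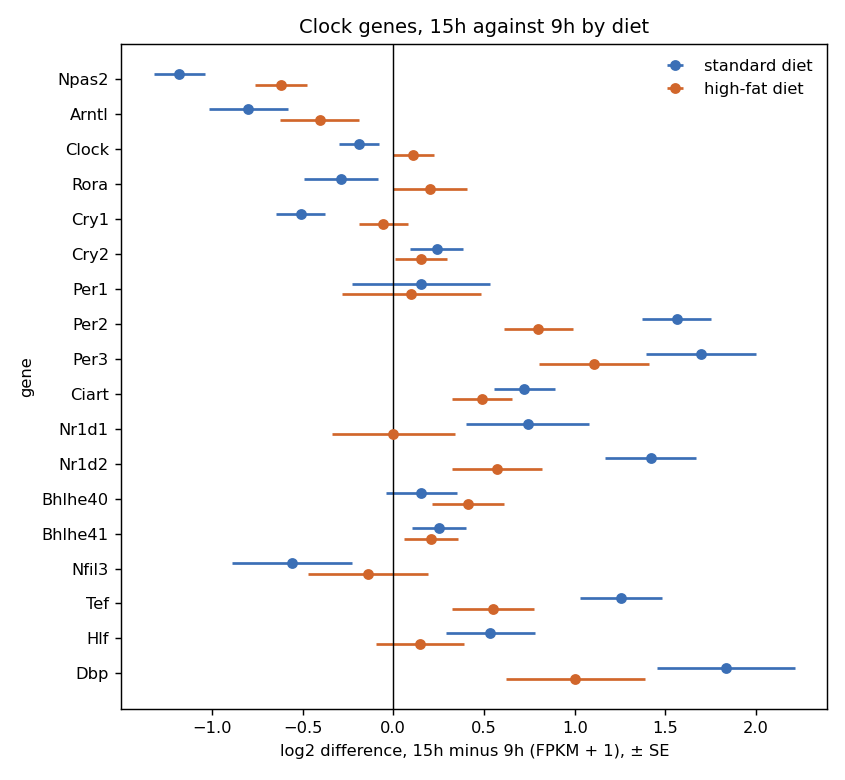
Log2 difference (15h minus 9h, log2(FPKM + 1) scale) of 18 core clock genes, on the standard diet (blue) and the high-fat diet (orange), with standard errors as bars and 2 libraries per diet and time. Values on the standard diet lie farther from 0 for all genes shown but Bhlhe40, for example 1.56 against 0.80 for Per2.

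No gene passed at 0.05 on either diet alone (0% on each; limma with a mean for each of the 4 groups). At an unadjusted p under 0.05 there were 2106 genes on the standard diet (15.9%) and 938 on the high-fat diet (7.09%). The difference between diets had 583 genes (4.41%) at that level and none after adjustment (0%). The 5 with the smallest p, all with an adjusted p of 0.942, were Morn2, Gm10142, Aadacl4fm2, Fxyd1 and C7. C7, a complement component, was at 25.7 and 20.7 FPKM on the standard and 21.9 and 24.96 FPKM on the high-fat diet at 9h. At 15h it was at 27.2 and 18.1 FPKM on the standard and at 6.27 and 7.97 FPKM on the high-fat diet. Fxyd1, a regulator of the sodium pump, was at 13.2 and 12.5 FPKM in the high-fat libraries at 15h and at 15.7 to 21.1 FPKM in the other 6. Morn2, which shares exon bases with the oppositely oriented Dhx57, was at 5.78 and 4.92 FPKM in the standard-diet libraries at 15h and at 2.25 to 3.06 FPKM in the other 6.

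When HF 9h 6 was left out, many genes rose that did not pass with all 8 libraries. By the same naming rule applied to that fit (a choice made after seeing the data), the 12 genes with the largest rise, which leave out unnamed gene models, included the splicing kinases Clk1 and Clk4, the cyclins L Ccnl1 and Ccnl2, the splicing factor Srsf11, the O-GlcNAc transferase Ogt and the zinc finger gene Zc3h7a. Srsf11 was at 11.2, 13.2, 32.8 and 11.4 FPKM at 9h and at 30.9, 31.4, 36.1 and 32.7 FPKM at 15h, with 30.6 to 33.1 FPKM at 21h. Ccnl2 was at 16.6, 22.5, 54.1 and 18.8 FPKM and then at 47.4, 54.1, 57.9 and 48.8 FPKM. Clk1 was at 8.95, 11.2, 37.9 and 8.49 FPKM and then at 29.2, 36.0, 38.9 and 20.1 FPKM. In each of these 3 genes HF 9h 6 lay with the 15h and 21h libraries and 3 of the 9h libraries were low. With all 8 libraries their log2 differences were 1.04 ± 0.27, 1.03 ± 0.30 and 1.10 ± 0.43, with a limma adjusted p of 0.155, 0.167 and 0.234. In the fit without it they were 1.38 ± 0.09, 1.39 ± 0.12 and 1.60 ± 0.22, with an adjusted p of 0.00526, 0.00526 and 0.00807.

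Beyond these genes, HF 9h 6 lay nearer the 15h mean than the mean of the other 9h libraries in 1496 of the 1623 genes higher without it (92.2%) and in 394 of the 618 lower (63.8%). The 21h mean lay nearer the 15h mean in 97.8% and 97.2% of them. These genes were selected in a fit without HF 9h 6, which was left out for its place beside the 15h libraries. Its nearness to 15h in them was thus partly built in. The same shares over all genes tested were not computed, for HF 9h 6 or for the 21h mean. That library was thus closer to 9h in the remaining 36.2% of the lower genes, and the muscle sum above is one such case. The other genes with the largest rise were Clca3a1, a member of the chloride channel accessory family, Slfn4, an interferon-inducible gene of myeloid cells, Gnrh1, the precursor of gonadotropin-releasing hormone, and the clock genes Per3 and Dbp. Gnrh1 was at 1.10, 1.48, 2.95 and 1.05 FPKM at 9h and at 4.11, 4.34, 5.69 and 6.59 FPKM at 15h, without overlap (1.26 ± 0.19; limma adjusted p = 0.0706 with all 8 libraries). Slfn4 differed more by diet, at 9.14 and 6.11 FPKM on the standard and 3.18 and 1.28 FPKM on the high-fat diet at 9h. The largest falls without HF 9h 6 were in muscle genes, among them Eef1a2, the translation elongation factor of muscle and nerve, at 71.8 to 120 FPKM at 9h and 34.04 to 59.0 FPKM at 15h. Others were Cacna1s, the voltage sensor of muscle fibres (-1.31 ± 0.13), Trim54, a ubiquitin ligase of the sarcomere (-1.30 ± 0.20), and Vgll2, a cofactor of muscle transcription (-1.34 ± 0.33).

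The hair follicle list had the lowest median after skeletal muscle. Of 23 hair follicle genes tested, 22 had negative values, with a median of -0.36. An unadjusted p under 0.05 held for 10 (7.55% of all genes were lower at that level), and 5 had all 15h libraries below all 9h libraries (4.69%). None passed at 0.05, and 1, Krt32, passed as lower without HF 9h 6, a share near the 4.67% of all genes. Krt32 was at 7.66, 6.95, 8.90 and 9.60 FPKM at 9h and at 5.90, 5.04, 5.80 and 3.94 FPKM at 15h (-0.59 ± 0.14). The keratin-associated gene Krtap3-1 was at 98.3 to 128 FPKM at 9h and 42.2 to 87.8 FPKM at 15h. The hair keratin genes are close copies of each other, between which the authors' counting could split reads, so single members are uncertain.

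The interferon list had the highest median outside the clock, 0.54, and 26 of 26 positive values. No gene had each 15h library above each 9h library, and none passed at 0.05 with all 8 libraries (5 passed as higher without HF 9h 6, beside 12.3% of all genes). The sums were 545, 455, 93.5 and 105 FPKM at 9h and 603, 895, 230 and 94.5 FPKM at 15h, so the spread between diets was wider than that between times. Oas2, an antiviral oligoadenylate synthetase, was at 4.39, 4.32, 1.03 and 0.770 FPKM and then at 10.4, 16.0, 4.22 and 1.52 FPKM (1.16 ± 0.23; limma adjusted p = 0.105). It passed without HF 15h 6, as Per3, Dbp and Tef did. Markers of B and plasma cells had a median of 0.30, with positive values in 7 of 7 genes tested and 3 higher at an unadjusted p under 0.05 (11.3% of all genes). Their sums were 86.9, 58.4, 44.3 and 21.2 FPKM at 9h and 64.3, 115, 59.3 and 25.9 FPKM at 15h, highest in CTL 15h 3 as for the interferon list, and their part in that result was not tested. None of the 7 had ranges without overlap, and none passed at 0.05 with or without HF 9h 6.

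Lipid genes of the gland had small differences. The 26 meibocyte and sebocyte genes had a median of 0.01, and none passed at 0.05. Soat1, which esterifies cholesterol, was at 88.7, 97.7, 107 and 128 FPKM at 9h and at 120, 114, 134 and 179 FPKM at 15h (0.37 ± 0.11; adjusted p = 0.177). With HF 9h 6 left out the median was -0.11, 3 genes passed as lower (Cyp4f39, Plin2 and Scd3; 4.67% of all genes) and 1 as higher (Dgat2l6; 12.3%). Plin2, a coat protein of lipid droplets, was at 330, 392, 235 and 410 FPKM at 9h and at 245, 198, 291 and 309 FPKM at 15h, where HF 9h 6 was the low 9h library. In cholesterol synthesis 19 of 26 genes had positive values and 3 were above without overlap (3.17% of all genes). Hmgcs1, an early enzyme of that pathway, was at 227, 241, 265 and 289 FPKM and then at 312, 304, 337 and 369 FPKM (0.37 ± 0.08; adjusted p = 0.132, and 0.0301 without HF 9h 6). The median of that list was 0.10, and 0.0045 without HF 9h 6. For fatty acid synthesis it was 0.03.

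In the remaining lists none of the genes passed at 0.05 with all 8 libraries, as in all lists fixed for this comparison. Cell cycle genes had a median of -0.01, with 2 of 35 lower at an unadjusted p under 0.05, near the 7.55% of all genes. Heat shock genes had a median of -0.03. Bag3, a co-chaperone, was the 1 gene of 18 without overlap (4.69% of all genes were below). It was at 32.4 to 38.2 FPKM at 9h and 26.7 to 30.8 FPKM at 15h. Without HF 9h 6, Bag3, Hsp90ab1 and Hspa1b passed as lower at 0.05 (4.67% of all genes) and Chordc1 as higher (12.3%). Ribosomal protein genes had positive values in 29 of 31, with a median of 0.13 and none without overlap. Endothelial genes had a median of 0.13, macrophage genes -0.11 and T cell genes 0.10. Epidermal cornification had a median of 0.24 with all 8 libraries and -0.01 without HF 9h 6, and stressed epidermis turned from 0.16 to -0.13.

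**Figure D5:**
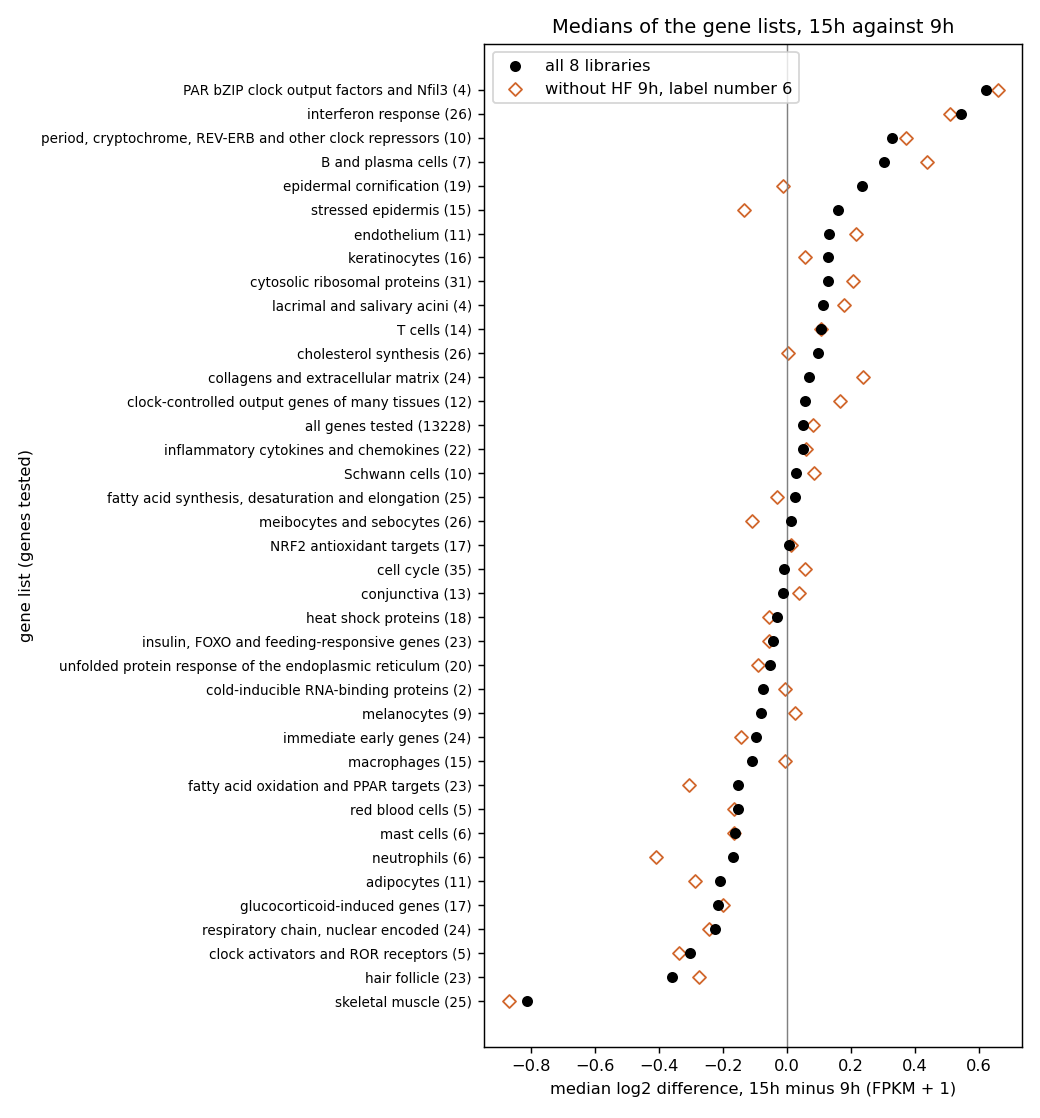
Median log2 difference (15h minus 9h, log2(FPKM + 1) scale) of each gene list, with the number of genes tested in brackets, for all 8 libraries (black points) and without HF 9h 6 (open diamonds). Skeletal muscle lies lowest at -0.81, the output factors with Nfil3 lie highest at 0.62, and all genes tested stand at 0.05.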

How the data were processed

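Per the labels' protocols, Trizol RNA went into an NEB library kit for Illumina. The authors deposited one table of FPKM values for 21936 genes in 12 libraries. Tools listed in the submitters' processing notes are HISAT2 2.0.5, HTSeq 0.9.1 and DESeq 1.30.0, with the build mm9. How FPKM was computed, the strand setting and the annotation are not given there. GENCODE's mouse release 21 (GRCm38) holds 21894 of the IDs. With exon lengths of that release, 98.1% of nonzero values were whole reads within 0.02 reads. All coordinates are from it.

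Genes above 1 FPKM in at least 2 of 12 libraries were kept, 13228 in all. On log2 values computed from the deposited FPKM with a pseudocount of 1, limma 3.58.1 (R 4.3.3, mean-dependent prior) was fitted to the 8 libraries with diet and time, leaving 5 residual degrees of freedom. Each diet and the difference between diets came from a fit with 4 group means. P-values were adjusted by Benjamini-Hochberg over all genes tested, with 0.05 as the threshold. The scripts were tested on simulated data.

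The members, gene lists and naming rule were chosen with earlier results of these data known. The rule named the 10 genes with the smallest p (fewer than 5 passed), the clock lists and the 5 genes with the smallest p for the difference between diets. It was applied again, for up to 12 rises and 12 falls with a mean of at least 2 FPKM, without HF 9h 6. List members outside it were chosen after their values were seen. One clock gene is counted in its list but its values are not reported here. Alternatives were a pseudocount of 0.1, other filters, all 12 libraries, other blocks, one median, limma-voom on recovered reads and each library left out.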

Additional observations from a re-analysis of the deposited data

Results flagged for a closer look

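Groups of 4 libraries at one time were checked for the 63 genes picked by the naming rule, at 9h and 15h (126 groups). In 13 groups the gap of the highest or lowest library to the next, as a share of the range, exceeded Dixon's 95% critical value. Chance flags about 1 in 20 groups. That rate is no yardstick here, since Clca3a1, Clk1, Zc3h7a, Clk4, Ccnl2 and Srsf11 were named because they rose most in the fit without HF 9h 6. HF 9h 6 was far above the other 9h libraries for Clca3a1 (8.99 FPKM), Clk1 (37.9 FPKM), Zc3h7a (18.9 FPKM), Clk4 (19.7 FPKM), Ccnl2 (54.1 FPKM) and Srsf11 (32.8 FPKM), and below them for Usp13 (6.00 FPKM). HF 9h 7 was lowest at 9h for Bhlhe40 (19.2 FPKM) and highest for Trim63 (22.4 FPKM). At 15h, HF 15h 6 was highest for Arntl (4.04 FPKM), Nfil3 (47.3 FPKM) and Trim63 (6.16 FPKM), and CTL 15h 2 was highest for Mybpc2 (59.8 FPKM).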

How the results depend on the processing

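With all 8 libraries 2 genes passed, both lower at 15h. The total was 1 with a pseudocount of 0.1, 0 with no filter on low values, 1 with the libraries shifted to one median, 1 with limma-voom on recovered reads, and 107 at an adjusted p under 0.1 (14 higher, 93 lower). The genes lower at 15h numbered 1, 0, 1 and 1 in the first 4 of these. With all 12 libraries in the fit, and again with no diet block, 1 gene was higher, and 3 passed on the standard diet with all 12 libraries. Without HF 15h 6 and HF 9h 7 together, 1 passed in total, with 1 higher (Dbp) and 0 lower. Leaving out each library in turn gave 0 to 2241 in total, 0 to 1623 higher and 0 to 618 lower, with the highest values without HF 9h 6. Without HF 9h 6 and with the libraries shifted to one median, 1968 passed, 855 higher and 1113 lower. Leave-one-out counts were 0 to 12 on the high-fat diet and 0 to 1 (Fosb) for the difference between diets, both highest without HF 15h 2, and 0 on the standard diet. Without HF 15h 2 the high-fat 15h group is the single library HF 15h 6, which stood apart in its immediate early genes (1612 FPKM) and is assumed there to vary like the other groups.

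The replicate block gave 0 genes in total and 0 lower, with an adjusted p of 0.322 for Asb2. Libraries share a number there, and the deviations of the same-numbered libraries had correlations of -0.083 and -0.045. Yet the high-fat library numbered 6 had the highest sum of immediate early genes at each time. Those sums were 1015, 1612 and 1935 FPKM at 9h, 15h and 21h, and HF 9h 7 was close at 982 FPKM. What the shared number stands for was not tested.

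Of 853 values of 46 gene results under these alternatives, 767 kept direction and side of the threshold, 22 no longer passed and 47 came to pass. Of those 47, 19 were without HF 9h 6 and 21 without it and with the libraries shifted to one median. A further 17 changed sign, all in genes near 0. Without single libraries, Per1 ranged from -0.047 (without HF 15h 6) to 0.31, Clock up to 0.022 (without CTL 15h 2), Tsc22d3 from -0.31 (without CTL 15h 3) to 0.20, Rora from -0.22 (without HF 9h 6) to 0.041 and Fmo2 from -0.076 (without HF 15h 2) to 0.30. Without both HF 15h 6 and HF 9h 7, Per1 was at -0.033, Clock at -0.095 and Rora at 0.014. Tsc22d3 was at -0.031 with one median, and Fmo2 at -0.096 with the replicate block. The cause of these changes was not tested. Counting error limits genes near 1 FPKM, where a single read on 2 kb of exons stands for up to 0.0336 FPKM.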
